A study of Mus musculus with 6 samples.

Results

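The genes described here are 7 regulators of G protein signalling (RGS genes) of CD4 T cells, Rgs1, Rgs2, Rgs3, Rgs10, Rgs14, Rgs16 and Rgs19, out of 23962 genes in the deposited expression table. They were selected on symbol, as the RGS genes of T cells, and on measured values: Rgs2 was chosen by its lower FPKM after stimulation in these libraries. For all 7 genes the comparison of stimulated with fresh cells is given as a description without a test. The study sequenced total RNA of CD4 T cells from lymph nodes and spleens of C57BL/6 mice, either wild type (WT) or YAP cKO. YAP cKO mice carry YAP flox/flox and CD4-Cre, and YAP is the co-activator that the Hippo kinases restrain. Cre driven by CD4 acts in T cells at large, so the deletion is not limited to regulatory T cells, and whether the WT mice carry Cre or a floxed allele is not given. For each genotype there were naive CD4 T cells (CD4+ CD62L+ CD25-), natural regulatory T cells (nTregs, CD4+ CD62L+/- with high CD25), both frozen directly after sorting, and nTregs cultured with IL-2 (100 U/ml), anti-CD3 bound to the plate (2 µg/ml) and anti-CD28 in solution (2 µg/ml). The labels give the stimulation as 24 h in one protocol and 48 h in another, and give neither the age nor the number of mice. Each of the 6 groups is 1 library, so there are no replicates within a group.

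RGS proteins act on heterotrimeric G proteins. A receptor loads the alpha subunit with GTP, the alpha subunit and the beta-gamma pair then signal, and an RGS protein speeds the hydrolysis of that GTP and so shortens the signal. In T cells the receptors in question include those for chemokines and sphingosine 1-phosphate, which guide cells into, within and out of lymphoid organs. Rgs1, Rgs2, Rgs3 and Rgs16 belong to the R4 subfamily, Rgs10 and Rgs14 to the R12 subfamily, and Rgs19 to the RZ subfamily.

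The regions just before the transcription start are shown for Rgs2 and Rgs16, the members whose levels differed most between libraries and in different patterns. These are the 250 bases before the RefSeq start (GRCm38.p6), 5′ to 3′ on the gene's strand. For Rgs2 they lie on the minus strand at chr1:144004150-144004399, and for Rgs16 on the plus strand at chr1:153740103-153740352. Capitals mark TGACG, which is an arm of the palindromic cyclic AMP response element TGACGTCA, and the GC box GGGCGG, each on either strand.
Rgs2: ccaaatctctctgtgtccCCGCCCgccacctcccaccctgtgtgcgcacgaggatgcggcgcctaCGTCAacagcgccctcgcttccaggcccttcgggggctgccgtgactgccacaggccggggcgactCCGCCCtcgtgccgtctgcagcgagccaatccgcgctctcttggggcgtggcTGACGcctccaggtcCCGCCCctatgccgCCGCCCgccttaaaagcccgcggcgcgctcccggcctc
Rgs16: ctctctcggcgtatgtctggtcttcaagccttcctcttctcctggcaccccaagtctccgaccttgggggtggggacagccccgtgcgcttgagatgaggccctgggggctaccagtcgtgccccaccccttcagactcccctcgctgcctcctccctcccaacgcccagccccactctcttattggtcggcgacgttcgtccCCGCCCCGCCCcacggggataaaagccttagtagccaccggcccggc
The Rgs2 sequence held TGACG at bases 66 (on the other strand, read as CGTCA) and 184, and 4 GC boxes at bases 19, 132, 199 and 213, all on the other strand. The Rgs16 sequence held GC boxes at bases 204 and 209, which overlap by 1 base, and no TGACG. Of 32851 RefSeq promoter windows of 300 bases, 20.8% held TGACG, 35.7% held a GC box and 1.79% held the whole element TGACGTCA. The whole element was found in none of the windows of the 5 members with an entry (Rgs2, Rgs3, Rgs10, Rgs16 and Rgs19). A GC box was found for all 5 of these members. An NF-kappaB pattern (GGGA and CC separated by any 4 bases) was found in the windows of Rgs10, Rgs16 and Rgs19 and in 20.7% of all windows. Rgs1 and Rgs14 had no entry. A match is a run of letters and not a measured binding site.

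The values are FPKM, which count fragments per length of transcript and per library size, so levels can be compared between genes. One genotype is named YKP in the table, and these columns were read as YAP cKO by elimination. Yap1 gave no check on that reading, since the 4 libraries of freshly sorted cells list it at 0 and it was 0.169 in WT and 0.235 in cKO stimulated nTregs. Foxp3, the lineage factor of regulatory T cells, was 2.98 and 3.30 FPKM in naive cells (WT first) and 45.9 to 57.8 in the 4 nTreg libraries. Between 10201 and 10885 genes per library had at least 1 FPKM. A single fragment on a transcript of 1 kb was worth 0.105 to 0.136 FPKM, which puts 54.2 fragments behind the lowest member value (Rgs16, WT naive) and 46129 behind the highest (Rgs1, WT fresh nTreg). The 95% intervals below are Poisson intervals from such estimated fragments. They are approximate and cover counting error only, not the spread between mice. PCR copies were not marked, so the intervals may be too narrow even for counting error. The libraries differed in Xist, from 3.21 FPKM in cKO fresh nTregs to 30.0 in WT fresh nTregs, while the Y-linked gene Ddx3y was present in all at 33.2 to 79.0. Genotype and the makeup of the libraries by sex, which the labels do not give, cannot be told apart.

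All 7 members were measured in every library, and they made up 630 FPKM together in WT naive cells, 2001 in WT fresh nTregs and 1268 in WT nTregs after stimulation. In cKO the sums were 685, 1739 and 1199. These sums are as deposited, and the fall after stimulation depends on the scaling. With FPKM sums made equal across libraries, Rgs1, the largest part in nTregs, was higher in stimulated than in fresh nTregs. Its difference was then 0.12 in both genotypes on the log2(FPKM + 1) scale. In WT fresh nTregs the order was Rgs1 (1309), Rgs10 (263), Rgs2 (188), Rgs16 (125), Rgs3 (39.1), Rgs14 (38.5) and Rgs19 (37.7). The last 3 were also close in cKO fresh nTregs, at 41.0, 41.0 and 36.7, and the order of Rgs3 and Rgs14 is not resolved at these counts. The makeup of the sum differed between populations. In naive cells Rgs10 held the largest share (32.8% in WT, 35.5% in cKO), followed by Rgs1 (25.8% and 24.8%) and Rgs2 (21.4% and 21.6%). In stimulated nTregs Rgs1 held 71.6% and 66.7%, and Rgs2 only 0.655% and 0.766%. From the lowest to the highest library, levels as deposited spanned 40.6-fold for Rgs16, 25.5-fold for Rgs2, 8.04-fold for Rgs1 and 5.52-fold for Rgs14. Rgs3, Rgs10 and Rgs19 spanned 1.74-fold, 1.49-fold and 1.42-fold.

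**Figure D1:**
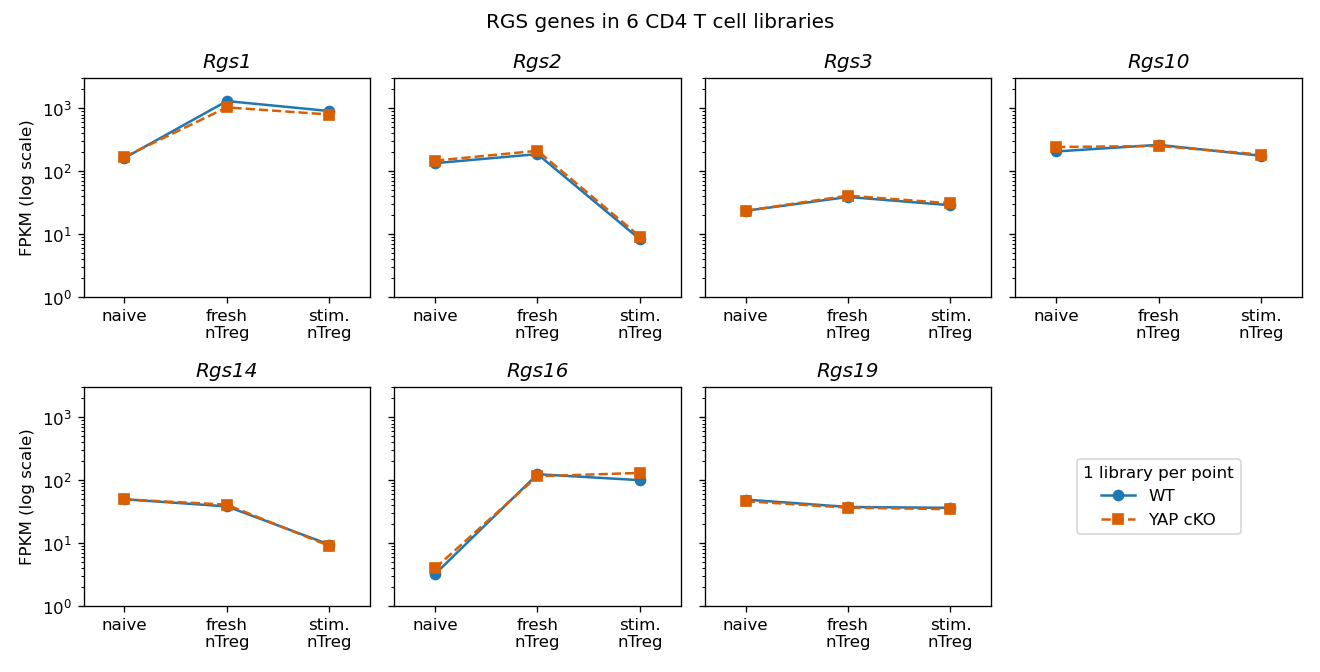
Level of each of the 7 RGS genes (FPKM, log axis) in naive CD4 T cells, fresh nTregs and stimulated nTregs, WT as circles and YAP cKO as squares, 1 library per point. Rgs1 and Rgs16 are higher in both nTreg populations than in naive cells, and Rgs2 and Rgs14 are lowest in the stimulated libraries. The WT and cKO points of a gene lie close together.

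Between fresh nTregs and naive cells, 4 of the 7 members rose and 2 fell in the fit over all libraries. The fit was limma on log2(FPKM + 1) with population and genotype as additive terms, over 11214 genes, and its error is the spread between the 2 genotypes and 3 populations rather than between mice. Of all genes tested, 31.3% were called in this comparison, 16.5% higher and 14.8% lower in fresh nTregs. The median difference of the members was 0.50 on the log2 scale against -0.02 over all genes. Both fresh libraries lay above both naive ones for 5 members and below them for 2, where 33.2% and 37.7% of all genes did. The members were picked as RGS genes expressed in T cells, and the fresh libraries also enter the comparison in which Rgs2 was noticed. Rgs2 is among the 4 that rose, and its own difference, 0.50, is the median of the members. Neither these counts nor that median are therefore independent of that choice.

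Rgs16, an R4 member that acts on the Gi and Gq classes of alpha subunit, had the widest gap between populations. It was at 3.23 FPKM in WT and 4.0 in cKO naive cells, at 125 and 116 in fresh nTregs, then at 100.5 and 131 after stimulation. Both naive libraries lay far below the 4 nTreg libraries. The ratio of fresh to naive was 38.7 in WT (95% counting interval 29.6 to 50.6) and 29.0 in cKO. Rgs16 rose by 4.72 on the log2(FPKM + 1) scale (SE 0.13, limma adjusted p = 1.39e-05), the 15th largest increase of 11214 genes.

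Rgs1, known for damping the response of lymphocytes to chemokines, was the most abundant member in every nTreg library. It measured 163 and 170 FPKM in WT and cKO naive cells, 1309 and 1039 in fresh nTregs, then 908 and 799 after stimulation. Among 22728 genes other than short features it ranked 76th in WT fresh nTregs and 368th in WT naive cells. Fresh nTregs exceeded naive cells 8.04-fold in WT and 6.11-fold in cKO. The rise was 2.80 on the log2(FPKM + 1) scale (SE 0.11, limma adjusted p = 4.90e-05), the 102nd largest.

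Rgs1 and Rgs16 are also made by other cells, and B cell markers were higher in the fresh nTreg libraries too. The 10 B cell markers in the table summed to 8.01 to 8.82 FPKM in naive cells, 42.1 to 50.8 in fresh nTregs and 12.1 to 12.3 after stimulation, mostly through Cd74 and Cd79b. The B cell gene Cd22 rose from 0.163 and 0.0576 FPKM in naive cells to 1.91 and 1.51 in fresh nTregs (1.28 on the log2 scale, SE 0.16, limma adjusted p = 0.00253) and was 0.211 and 0.245 after stimulation. H2-Aa, a class II gene, reached 3.14 in WT fresh nTregs. Ms4a1 and Pax5 were at most 0.165 and 0.129 in any library. In the stimulated nTregs Rgs1 was at 799 to 908 and Rgs16 at 100.5 to 131. The part of B cells in the Rgs1 and Rgs16 values was not tested. In such bulk libraries, fewer cells of a type and less RNA per cell cannot be told apart.

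Rgs3, an R4 member that can also bind beta-gamma subunits, was 23.6 FPKM in each naive library, 39.1 (WT) and 41.0 (cKO) when fresh, and 28.9 and 31.0 once stimulated. As deposited, the fresh libraries were the highest and the naive libraries the lowest, without overlap. With FPKM sums made equal, stimulated exceeded fresh nTregs by 0.21 in WT and 0.09 in cKO on the log2(FPKM + 1) scale. Rgs3 rose by 0.74 from naive to fresh (SE 0.08, limma adjusted p = 0.00149). Rgs3 is the only member with more than 1 RefSeq transcript in the table. Transcript variant 2 (3888 nt) held 50.4% to 62.4% of the gene's FPKM over the 6 libraries and variant 3 (4084 nt) held 34.3% to 45.0%. Variant 1 (4698 nt) held 0.476% to 4.61%. Variant 2 was 14.2 and 14.7 FPKM in naive cells but 22.6 and 24.5 in fresh nTregs, and variant 3 was 8.94 and 8.09 in naive cells but 15.8 and 15.6 in fresh nTregs, so both major transcripts were higher in fresh nTregs. Reads of 50 bases would be shared with the annotated gene Gm5763 over 11.4% of the Rgs3 sequence, and the lncRNA Gm52741 overlaps the Rgs3 locus. How the authors assigned such reads is not given in the sources used here.

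**Figure D2:**
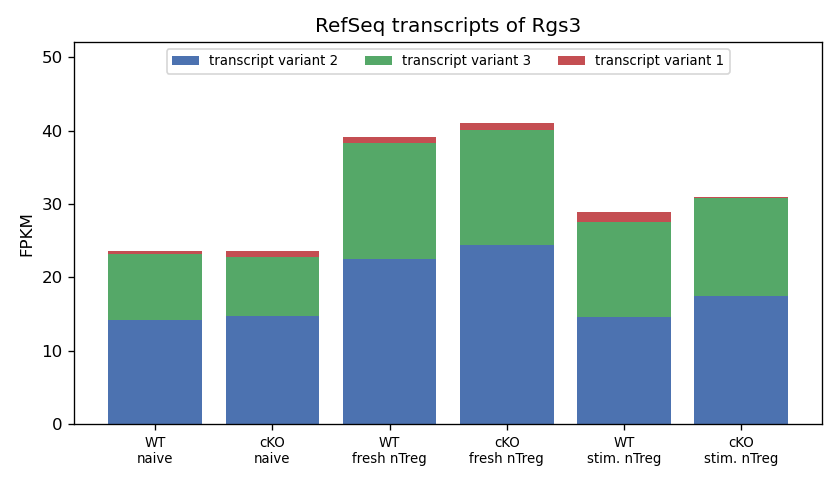
FPKM of the 3 RefSeq transcripts of Rgs3, stacked, in each of the 6 libraries. Transcript variants 2 and 3 carry nearly all of the signal in every library and are both higher in fresh nTregs (22.6 and 15.8 FPKM in WT) than in naive cells (14.2 and 8.94).

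Rgs2, an R4 member that prefers Gq alpha subunits, was high in both freshly sorted populations and low after culture. It measured 135 and 148 FPKM in WT and cKO naive cells, 188 and 212 in fresh nTregs, then 8.30 and 9.18 after stimulation. As deposited, the stimulated libraries lay more than an order of magnitude below the other 4, on about 176 and 252 fragments. Stimulated nTregs were 22.6-fold lower than fresh ones in WT and 23.1-fold lower in cKO, and the gene moved from rank 297 to rank 6632 in WT. The mean difference of -4.36 on the log2(FPKM + 1) scale was the 19th lowest of 11214 genes. This is the difference for which the gene was chosen. From naive to fresh cells Rgs2 rose by 0.50 (SE 0.07, limma adjusted p = 0.00434). The fresh libraries also enter the difference for which Rgs2 was chosen, so the p-value of this rise is not independent of that choice. This rise had the same size but no longer passed the threshold without the WT fresh library (0.52, limma adjusted p = 0.0562) or without the cKO fresh library (0.48, limma adjusted p = 0.0759).

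Rgs14, an R12 member that carries Ras-binding and GoLoco domains beside its RGS domain, showed the other large difference with stimulation. It was 49.9 and 49.8 FPKM in WT and cKO naive cells, 38.5 and 41.0 in fresh nTregs, then 9.50 and 9.04 after stimulation. Stimulated nTregs were 4.05-fold lower than fresh in WT and 4.53-fold lower in cKO, a mean difference of -1.99 and the 145th lowest. From naive to fresh cells it fell by 0.32 on the log2 scale (SE 0.08, limma adjusted p = 0.0336). That call depends on the scaling: with FPKM sums made equal the median of all genes moves from -0.02 to 0.15 and Rgs14 stands at -0.12 (limma adjusted p = 0.421). It was also lost without any 1 of the 4 naive and fresh libraries (limma adjusted p up to 0.297).

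Rgs10, a small R12 protein that consists of little more than an RGS domain and acts on Gi alpha subunits, was the most abundant member in naive cells. It measured 207 and 243 FPKM in WT and cKO naive cells, 263 and 253 in fresh nTregs, then 177 and 185 after stimulation. The stimulated libraries were the lowest, and the naive and fresh libraries differed little. The difference of 0.20 between fresh and naive did not pass the test (SE 0.09, limma adjusted p = 0.148). At an equal FPKM sum it was 0.40 (limma adjusted p = 0.0268).

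Rgs19, an RZ member also known as GAIP, varied least as deposited. It was 49.4 and 46.5 FPKM in WT and cKO naive cells, 37.7 and 36.7 in fresh nTregs, then 36.5 and 34.8 after stimulation. As deposited, both naive libraries lay above the 4 nTreg libraries, which were close to each other. With FPKM sums made equal, stimulated exceeded fresh nTregs by 0.59 in WT and 0.41 in cKO on the log2(FPKM + 1) scale. The median of all genes was then 0.52 and 0.42. Rgs19 fell by 0.36 from naive to fresh (SE 0.07, limma adjusted p = 0.0157). At an equal FPKM sum the difference was -0.16 (limma adjusted p = 0.231), and the call was also lost without any 1 of the 4 naive and fresh libraries (limma adjusted p up to 0.167).

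Set side by side for the stimulated against the fresh nTregs, the mean log2 differences were -4.36 for Rgs2, -1.99 for Rgs14, -0.51 for Rgs10, -0.45 for Rgs1, -0.41 for Rgs3, -0.07 for Rgs16 and -0.06 for Rgs19. Thus 2 of 7 were at least 2-fold lower, where 6.67% of all genes tested were. Both stimulated libraries lay below both fresh ones for 6 of 7, all but Rgs16, where 40.1% of all genes did. These counts include the gene that was chosen for the difference. The scaling matters for the smaller values. At an equal FPKM sum the median of all genes moves from -0.05 to 0.47, Rgs1, Rgs3 and Rgs10 stand at 0.12, 0.15 and 0.06, and Rgs16 and Rgs19 both at 0.50. Under either scaling Rgs1, Rgs3 and Rgs10 lay below the median of all genes and Rgs16 and Rgs19 close to it. Rgs2 and Rgs14 remained lower, at -3.83 and -1.45.

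**Figure D3:**
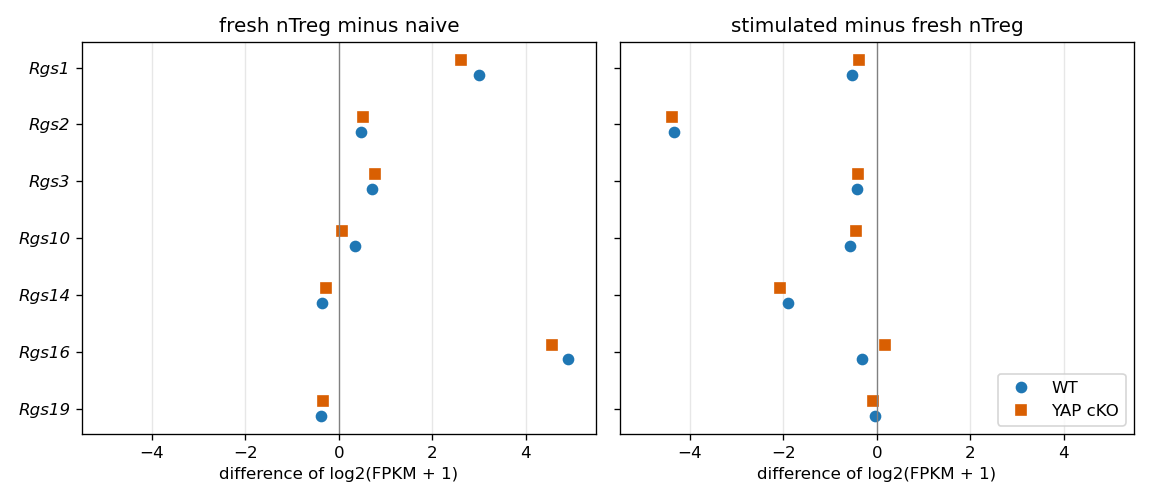
Difference of log2(FPKM + 1) for each RGS gene between fresh nTregs and naive cells (left) and between stimulated and fresh nTregs (right), WT as circles and YAP cKO as squares, 1 library pair per point. On the left Rgs16 and Rgs1 stand far to the right of 0, and on the right Rgs2 and Rgs14 far to the left, with both genotypes close together.

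None of the 7 members was called between cKO and WT across the 3 populations, where 0.375% of all genes were called (42 of 11214 by limma). At an unadjusted p under 0.05, 1 of 7 members passed, as did 1345 of all 11214 genes, a similar share. That member was Rgs2, higher in cKO in 3 of 3 populations as deposited by 0.15 on the log2 scale (SE 0.06, limma adjusted p = 0.403). Rgs19 was lower in cKO in 3 of 3 populations, by a mean difference of -0.06 (limma adjusted p = 0.703). Rgs16 had a mean difference of 0.17 (limma adjusted p = 0.553), Rgs1 of -0.15 (limma adjusted p = 0.560), Rgs10 of 0.08 and Rgs3 of 0.06. Rgs14 was at 0.01 and changed sign with the scaling. The members' median was 0.06, against 0.01 for all genes.

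Within single populations no member differed 2-fold between genotypes, where 1.19% of genes did among naive cells, 1.03% among fresh nTregs and 1.88% among stimulated ones. Some differences exceeded the estimated counting error, which says nothing of the spread between mice. Rgs1 had a log2 ratio of cKO to WT of -0.33 in fresh nTregs (95% counting interval -0.35 to -0.31) and -0.18 in stimulated nTregs (-0.21 to -0.16). In naive cells it was 0.06 (0.01 to 0.12). Rgs2 stood at 0.13 for naive cells and 0.18 for fresh nTregs, and in stimulated nTregs, with few fragments, its interval ran from -0.13 to 0.42. Rgs10 was at 0.23 in naive cells (0.12 to 0.34) and its intervals in both nTreg populations include 0. Rgs16 was at -0.11 in fresh nTregs (-0.19 to -0.03) and 0.38 in stimulated nTregs (0.30 to 0.47). For Rgs3, Rgs14 and Rgs19 the intervals include 0 in all 3 populations. With equal FPKM sums the median genotype difference of all genes in stimulated nTregs moves from 0.03 to -0.10. On the log2(FPKM + 1) scale Rgs1 then stood at -0.34, Rgs16 at 0.23 and Rgs2 at -0.01, and Rgs3 and Rgs10 turned to -0.06 and -0.09.

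**Figure D4:**
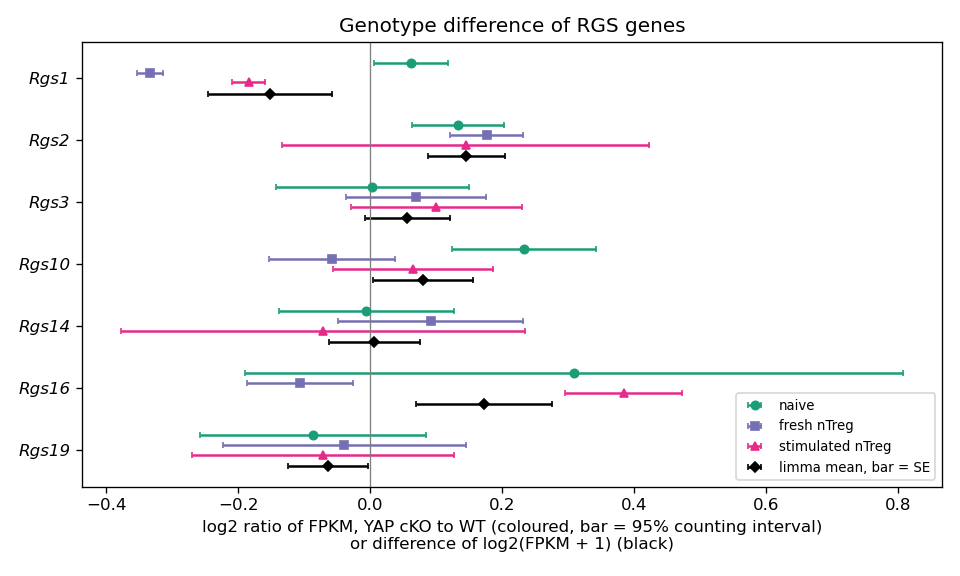
Genotype difference of each RGS gene. Coloured points are the log2 ratio of YAP cKO to WT FPKM in 1 population with its 95% counting interval, and black points are the mean difference of log2(FPKM + 1) from limma with its SE. Rgs1 lies left of 0 in both nTreg populations, and Rgs16 lies right of 0 in stimulated nTregs (0.38) and slightly left of it in fresh ones (-0.11).

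The change with stimulation was set against genotype for each member. The cKO change minus the WT change had a counting interval that includes 0 for Rgs2, Rgs3, Rgs10, Rgs14 and Rgs19. For Rgs16 the level as deposited was lower after stimulation in WT (125 to 100.5 FPKM) and higher in cKO (116 to 131), a difference of 0.49 in log2 ratio (0.37 to 0.61). For Rgs1 it was 0.15 (0.12 to 0.18), from changes of -0.53 in WT and -0.38 in cKO. These values depend on the scaling. With equal FPKM sums the Rgs1 changes were 0.12 in both genotypes and the difference of response was 0.00. Under that scaling Rgs16 was higher after stimulation in both genotypes, by 0.33 in WT and 0.67 in cKO on the log2(FPKM + 1) scale, where the median of all genes was 0.52 and 0.42, and the difference of response was 0.34. Over all genes, 1.8% differed at least 2-fold in response, and no member did. The 10 NK and cytotoxic markers summed to 32.3 FPKM in WT and 76.4 in cKO fresh nTregs and to 33.5 and 89.8 in stimulated nTregs. The higher cKO sums came through Gzmb (9.80 and 42.9 in fresh nTregs) and Nkg7 (15.0 and 27.8). In fresh nTregs Klrd1 (1.21 and 0.638), Klrb1c (1.48 and 1.07), Prf1 (1.99 and 1.75), Klrk1, Ncr1 and Klre1 were lower in cKO. Gzma and Eomes were slightly higher there. In stimulated nTregs no marker other than Gzmb and Nkg7 exceeded 1.92 FPKM. In naive cells the sums were 36.7 in WT and 23.4 in cKO, mostly Klrd1 (13.1 and 8.86) and Prf1 (11.6 and 9.49), and Klrd1 fell by 2.63 from naive to fresh nTregs (SE 0.25, limma adjusted p = 0.000926). Ncr1 and Klre1 were at most 0.401 and 0.699 in any library. The part of cells carrying such markers in the Rgs1 and Rgs16 values was not tested.

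The other RGS genes were mostly silent. Of 14 further RGS genes in the table, 11 were below 1 FPKM in every library. Rgs9, an R7 member best known from photoreceptors and striatum, was 0.0570 and 0.0147 FPKM in WT and cKO naive cells, 5.08 and 5.67 in fresh nTregs, then 3.71 and 4.35 after stimulation. It rose by 2.62 from naive to fresh (SE 0.14, limma adjusted p = 0.000128), with naive values too low for a fold. Rgs11, its R7 relative, went the other way, from 4.73 and 5.85 in naive cells to 1.13 and 1.38 in fresh nTregs and 1.75 and 1.92 after stimulation. It fell by 1.48 (SE 0.13, limma adjusted p = 0.000782). Rgs12, of the R12 subfamily, was between 1.31 and 3.31 and was higher in cKO in each population, by a mean of 0.39 that did not pass the correction (SE 0.13, limma adjusted p = 0.324).

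Rgs1 and Rgs2 are neighbours on chromosome 1 (mm10). Rgs2 spans 143999338 to 144004149 and Rgs1 spans 144244669 to 144249104, with Rgs13 between them and Rgs21 and Rgs18 beyond Rgs1. The gap between Rgs2 and Rgs1 is 241 kb. The 3 other RGS genes of this cluster were at or near 0, with Rgs13 at most 0.156 FPKM, Rgs18 at most 0.153 and Rgs21 at 0. Rgs16 lies farther along the same chromosome at 153740353 to 153745468. The pair showed different patterns, Rgs1 remaining at 799 to 908 FPKM in stimulated nTregs while Rgs2 was at 8.30 and 9.18. The remaining members lie at 62559835 to 62703019 on chromosome 4 (Rgs3), 128373621 to 128419506 on chromosome 7 (Rgs10), 55369732 to 55384687 on chromosome 13 (Rgs14) and 181688419 to 181694537 on chromosome 2 (Rgs19).

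For each member the genes with the most similar profile over the 6 libraries were found by the Euclidean distance of the log2(FPKM + 1) values after subtracting each gene's mean. Nearest to Rgs2 were Hspa1b, an inducible heat shock protein, Junb, an AP-1 subunit of the immediate early response, and Sik1, a kinase induced by cyclic AMP (distances 0.69, 0.71 and 0.71). Junb was 1289 and 1356 FPKM in naive cells (WT first), 1254 and 1164 in fresh nTregs, then 57.9 and 82.5 after stimulation, and Sik1 went from 97.1 and 102 through 118 and 108 to 3.05 and 3.55 over the same steps. Nearest to Rgs14 were Cited2, Hvcn1 and Ccnl1 (0.12, 0.15 and 0.24). Nearest to Rgs16 were Coro2a, Nrp1, a surface receptor of thymus-derived regulatory T cells, and Serpina3g (0.37, 0.48 and 0.67). Nrp1 was 3.35 and 3.64 in naive cells and 101.6 to 121 in the nTreg libraries. Nearest to Rgs1 were Rgs9, the cytokine gene Csf1 and Swap70 (0.47, 0.48 and 0.54), nearest to Rgs3 Il15ra, Plpp2 and Cyth4, nearest to Rgs10 Wbp2, Nlrc5 and Pigp, and nearest to Rgs19 Senp2, Pea15a and Zfp110. These likenesses are descriptions over 6 libraries that share their 3 populations.

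**Figure D5:**
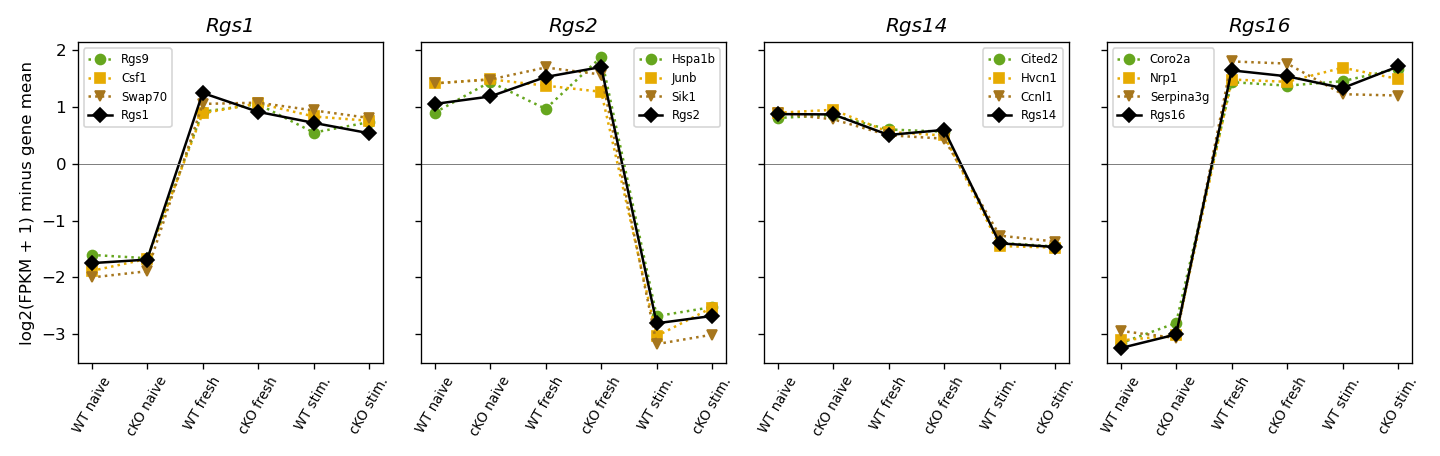
Profile of Rgs1, Rgs2, Rgs14 and Rgs16 (black) and of the 3 genes nearest to each (coloured, dotted) over the 6 libraries, as log2(FPKM + 1) minus the gene's mean. The Rgs2 profile drops in the stimulated libraries together with Hspa1b, Junb and Sik1, and the Rgs16 profile is low only in the naive libraries, as are Coro2a, Nrp1 and Serpina3g.

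Genes of the immediate early and T cell receptor response were compared between the populations as well. Of 16 measured genes on that list, 11 rose and none fell from naive to fresh nTregs, where 16.5% and 14.8% of all genes did. Tnfrsf4, the receptor OX40, rose by 3.93 (SE 0.08, limma adjusted p = 7.67e-06). Between fresh and stimulated nTregs 6 rose and 9 fell, where 22.6% and 27.3% of all genes did. With FPKM sums made equal, 2770 genes were higher and 666 lower in fresh nTregs than in naive cells (1854 and 1656 as deposited), and 6725 higher and 1020 lower after stimulation (2531 and 3063 as deposited). Fos, the AP-1 subunit, fell by 6.01 on the log2 scale (SE 0.13, limma adjusted p = 7.50e-06), from 351 and 401 FPKM to 4.88 and 4.79, and was already at 222 and 318 in naive cells. Junb fell by 4.11 (SE 0.15, limma adjusted p = 4.78e-05) and the orphan nuclear receptor gene Nr4a1 fell by 2.13 (SE 0.09, limma adjusted p = 6.83e-05). From naive to fresh cells Junb did not rise (1289 and 1356 FPKM to 1254 and 1164), whereas Rgs2 did. With stimulation Fos and Junb, which had the largest differences on this list, were lower, as Rgs2 was. Fresh cells were frozen straight after sorting and stimulated cells came from culture, so sorting, culture and stimulation cannot be told apart in these differences.

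Among the targets of RGS proteins, 4 of 9 measured alpha subunit genes rose from naive to fresh nTregs and none fell (6 and none at an equal FPKM sum). For this and the lists that follow, the shares over all genes were 16.5% higher and 14.8% lower in fresh nTregs, and 22.6% higher and 27.3% lower with stimulation. Gna15, an alpha subunit of the Gq class, was 0.579 and 0.490 FPKM in naive cells but 8.43 and 13.5 in fresh nTregs (2.93, SE 0.20, limma adjusted p = 0.000281). Gnaq, the Gq subunit itself, went from 0.592 and 0.882 to 5.96 and 5.18 (1.92, SE 0.16, limma adjusted p = 0.000612). With stimulation 2 rose and 4 fell. Gnas, the Gs subunit, rose by 0.63 (SE 0.07, limma adjusted p = 0.00120), while Gna15, which fell by 0.60 (SE 0.20, limma adjusted p = 0.0475), was not called under any of the 3 other scalings. At an equal FPKM sum 4 alpha subunit genes rose with stimulation and 1 fell. With 1 library left out, 2 to 4 rose from naive to fresh nTregs, fewest without the WT fresh or the cKO naive library. With stimulation 1 to 2 rose and 1 to 4 fell, 1 and 1 without either fresh library. Of 10 beta and gamma genes, 2 rose and none fell in fresh nTregs (4 and none at an equal FPKM sum, and 5 at an equal sum without short features), and with stimulation 3 rose and 2 fell (6 and 1 at an equal FPKM sum). With 1 library left out, 1 to 3 rose in fresh nTregs (1 without the WT fresh, the cKO fresh or the cKO naive library), and with stimulation 1 rose and 1 fell without the WT fresh library. Gng2 rose in both steps, from 10.6 and 13.3 FPKM in naive cells to 22.9 and 25.2 in fresh and 69.6 and 70.1 after stimulation.

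Gnb4, a beta subunit, was the only gene of these signalling lists called between genotypes. It was 4.67 FPKM in WT and 8.66 in cKO naive cells, 4.15 and 10.7 in fresh nTregs, then 7.79 and 19.7 after stimulation, so cKO was higher in 3 of 3 populations. The mean difference was 1.06 (SE 0.12, limma adjusted p = 0.0397). It was lost without either fresh nTreg library (limma adjusted p up to 0.143).

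On the receptor side, 23 of 41 measured G protein-coupled receptor genes of lymphocytes rose from naive to fresh nTregs and 9 fell. The median difference was 0.66 on the log2 scale against -0.02 over all genes. The chemokine receptors Ccr2, Cxcr3 and Ccr6 had the largest rises. Ccr2 was 0.265 and 0.545 FPKM in naive cells but 23.3 and 50.2 in fresh nTregs (4.66, SE 0.20, limma adjusted p = 5.53e-05). With stimulation 10 rose and 20 fell, and at an equal FPKM sum these counts were 17 and 14. With 1 library left out, 18 to 24 rose and 6 to 10 fell in the earlier comparison, and 7 to 10 rose and 15 to 20 fell with stimulation. Gpr132, a receptor of lymphocytes linked to lipid and proton sensing, fell by 2.81 (SE 0.08, limma adjusted p = 1.77e-05). Gpr183, the oxysterol receptor EBI2, fell by 2.51 (SE 0.08, limma adjusted p = 3.33e-05).

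Other parts of the pathway that end or pass on the signal were also measured. Of 7 receptor kinase and arrestin genes, 2 fell and none rose from naive to fresh nTregs, and 4 fell and 1 rose with stimulation (2 and 1 at an equal FPKM sum). Grk6, a kinase that desensitises chemokine receptors, fell by 0.88 from naive to fresh nTregs (SE 0.08, limma adjusted p = 0.000754) and by 1.10 with stimulation (SE 0.08, limma adjusted p = 0.000275), to 46.5 and 52.9 FPKM. Arrb2, a beta-arrestin that fell in both steps, went from 129 in each naive library to 83.5 and 85.5 and then 47.0 and 48.8. Of 14 other modulators, 2 rose and 5 fell in fresh nTregs, and 2 rose and 6 fell with stimulation (5 and 3 at an equal FPKM sum). Axin2, a Wnt pathway scaffold with an RGS domain, fell by 2.03 with stimulation (SE 0.12, limma adjusted p = 0.000161). Of 29 effector genes, 6 rose and 8 fell in fresh nTregs, or 10 and 6 at an equal FPKM sum. Among them was the phosphodiesterase gene Pde3b, which fell by 3.72 (SE 0.16, limma adjusted p = 6.12e-05) from 72.9 and 51.1 FPKM to 4.18 and 3.26. With stimulation 4 effector genes rose and 10 fell, or 16 and 8 at an equal FPKM sum. With 1 library left out, 2 to 9 effector genes rose and 5 to 9 fell from naive to fresh nTregs, fewest without the cKO fresh library. Among the other modulators 0 to 6 fell in that comparison, none without the cKO fresh library, 2 without the WT fresh library and 3 without the WT naive library. With stimulation 1 to 4 effector genes rose and 8 to 11 fell, 1 and 8 without the WT fresh library and 2 and 11 without the cKO stimulated library. No gene of these 3 lists was called between genotypes by limma.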

How the data were processed

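Total RNA of 6 libraries was sequenced. Per the labels' protocols, 322 ng of RNA was depleted of ribosomal RNA and made into stranded libraries with 12 PCR cycles. Per the submitters' processing notes, FastQC, TopHat, Cuffdiff and Cuffnorm were used with mm10. The deposited values are FPKM per RefSeq transcript, scaled across libraries by the authors with Cuffnorm. Library totals were not used here, and strand in counting is not given in the sources used here.

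From the deposited FPKM, 32547 transcripts (165 repeated rows counted once) were named by GENCODE and RefSeq tables and summed per gene. limma 3.58.1 (R 4.3.3; intensity trend, moderated variances, two-sided, Benjamini-Hochberg, called at an adjusted p under 0.05) was fitted to log2(FPKM + 1) of genes with at least 1 FPKM in at least 2 libraries, with population and genotype as terms, 2 residual and 4.03 prior degrees of freedom. It was run on simulated data whose noise was independent and whose genotype change was the same in every population. That setting meets the assumptions of the fit, so it does not show how the fit performs on these libraries. The p-values of the fit measure the spread between libraries, which may be technical. Differences between 2 libraries have no test. Fragments were estimated from the steps of the lowest values, of which 75.9% to 79.7% per library were whole within 0.1, and from transcript lengths of the reference, which may differ from the authors'. This share was too low to treat the values as counts, so the counting intervals are approximate. Promoter sequences are from RefSeq (GRCm38.p6).

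The members and gene lists were chosen with earlier results of these data known. Named were all members and measured RGS genes, per list and comparison the 3 called genes with the largest difference (fewer are printed), and per member the 3 nearest profiles. Alternatives were the pseudocount, filter, scaling, trend and each library left out. Of the marker lists not described in the report, T cell identity genes summed to 1577 to 2541 FPKM, myeloid and dendritic markers to 39.7 to 60.5, CD8 T cell markers to 3.59 to 8.90, platelet markers to 2.11 to 4.01 and erythroid markers to at most 1.08.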

Additional observations from a re-analysis of the deposited data

Results flagged for a closer look

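Rgs1 and Rgs16 had genotype differences of opposite direction in different populations, each beyond counting error. For Rgs1 the log2 ratio of cKO to WT was 0.06 in naive cells and -0.33 in fresh nTregs, a gap of 0.40, and -0.18 in stimulated nTregs, a gap of 0.25 to naive cells. For Rgs16 it was -0.11 in fresh and 0.38 in stimulated nTregs, a gap of -0.49. The same 4 libraries give the change with stimulation as -0.31 in WT and 0.17 in cKO for Rgs16, again -0.49 apart. With equal FPKM sums the Rgs16 changes were 0.33 and 0.67, so the opposite directions with stimulation hold only for some scalings, while the Rgs16 genotype difference was -0.12 in fresh and 0.23 in stimulated nTregs. With 1 library per group these differences were not tested.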

How the results depend on the processing

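With the population block left out (genotype alone), 3 genes were called between cKO and WT instead of 42. With a pseudocount of 5 the count was 17, without the filter 4, and without each library in turn 16 to 103. No member was called between genotypes under any of these. Between fresh nTregs and naive cells 3510 genes were called, 2199 without the filter and 1303 to 4785 with 1 library left out. Of the members 6 were called, and 3 to 6 with 1 library left out. Rgs1, Rgs3 and Rgs16 were called under all alternatives and leave-outs. Rgs14 was not called without the filter (limma adjusted p = 0.0662) or the trend (limma adjusted p = 0.0606). For stimulated against fresh nTregs 5594 genes were called, and 2917 to 5415 with 1 library left out. Genes at least 2-fold apart between genotypes numbered 124 in naive cells (272 and 46 at pseudocounts of 0.1 and 5, 72 at a minimum of 5 FPKM), 112 in fresh nTregs (274 and 45) and 209 after stimulation (490 and 84). In response to stimulation they numbered 207 (602 and 59, 103 at a minimum of 5 FPKM and 325 at an equal FPKM sum). The genotype difference of Rgs14, 0.01, was -0.04 at an equal FPKM sum, -0.03 at an equal sum without short features, -0.01 at an equal upper quartile, -0.04 without either fresh nTreg library and 0.04 without the WT stimulated library. The cause was not tested. Short features held 36.2% to 36.6% of the FPKM sum in naive and fresh libraries and 16.0% and 17.8% in stimulated ones. No paired analysis by replicate number was possible because each group holds 1 library. Depth limits Rgs2 and Rgs14 in stimulated nTregs (155 to 252 fragments) and Rgs16 in naive cells (54.2 and 79.3).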
